A study of Mus musculus with 8 samples.

Results

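Transcripts of the stefins, small proteins that inhibit cysteine proteases inside the cell, were followed in myeloid cells of lupus-prone mice. The members are the rows of the count table whose symbol is *Stfa1*, *Stfa2*, *Stfa3*, *Stfa2l1* or *Cstb*, which makes 5 of 54188 genes. The first 4 are stefin A genes and *Cstb* is stefin B. All libraries came from sanroque mice, which are homozygous for the san allele of *Roquin* (Roquin san/san) on a C57BL/6 background and are described as female and about 20 weeks old. CD11b+Gr-1hi and CD11b+Gr-1lo cells had been sorted from the spleen (SP) and bone marrow (BM), the labels naming the first G-MDSC and the second M-MDSC, and each of the 4 groups holds 2 libraries, numbered 5 and 6 for SP Gr-1hi, 7 and 8 for SP Gr-1lo, 9 and 10 for BM Gr-1hi, and 11 and 12 for BM Gr-1lo. Every group carries the mutation in all its cells and no wild-type library was compared, so the comparisons are between tissues and between subsets of mutant mice only. The antibody to Gr-1 binds Ly6G and, less strongly, Ly6C, and each library is RNA of a sorted pool in which fewer cells of a type and less RNA per cell cannot be told apart.

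Stefins belong to the cystatin superfamily. They lack a signal peptide, stay in the cytosol, and block cathepsins and other papain-like proteases by wedging a conserved Gln-x-Val-x-Gly loop and their N terminus into the active site. Stefin B is made by most cell types and protects them from cathepsins that leak out of lysosomes. In mice the stefin A gene has multiplied into a cluster on chromosome 16 where the human genome has the gene *CSTA*, and its transcripts are known from neutrophils and their precursors.

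The coding sequence around the inhibitory loop is shown because it tells the members apart and shows how close they are. Each run spans 75 bases of coding sequence of GENCODE transcripts on GRCm38, with the codons of Gln-x-Val-x-Gly in capitals. The capitals lie in exon 2 of 3 in every member, at codons 52 to 56 of *Stfa2l1*, *Stfa2* and *Stfa3* and 46 to 50 of *Stfa1* and *Cstb*, and the last bases of each run come from exon 3, so the genome spans given include the intron between them.
*Stfa2l1* (chr16:36159985-36161758, plus strand): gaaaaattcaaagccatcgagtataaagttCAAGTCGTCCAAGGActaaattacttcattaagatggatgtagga
*Stfa1* (chr16:36280505-36285181, plus strand): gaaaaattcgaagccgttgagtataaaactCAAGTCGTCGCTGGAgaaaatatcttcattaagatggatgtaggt
*Stfa2* (chr16:36404141-36405192, minus strand): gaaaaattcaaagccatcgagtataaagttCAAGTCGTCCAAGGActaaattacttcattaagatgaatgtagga
*Stfa3* (chr16:36450723-36452213, minus strand): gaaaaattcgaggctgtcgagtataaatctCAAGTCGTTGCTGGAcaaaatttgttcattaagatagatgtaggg
*Cstb* (chr10:78426966-78427322, plus strand): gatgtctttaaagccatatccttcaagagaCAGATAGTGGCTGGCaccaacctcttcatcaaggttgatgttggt

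The loop codons of *Stfa2l1* and *Stfa2* are the same, and these runs match at 74 of 75 positions. *Stfa1* and *Stfa3* match at 65 positions, and *Cstb* matches the stefin A members at 40 to 45. Over the whole coding sequence, *Stfa2l1* and *Stfa2* were 96.4% identical, while other pairs of stefin A members were 73.1% to 81.6% identical and *Cstb* was 52.1% to 57.5% identical to them. The closest relative of *Stfa1* was not a member but *Cstdc5*, at 97.9%. What this means for counting was measured by asking which stretches of the read length, 101 bases, occur letter for letter in another gene's transcripts. For *Stfa2l1*, *Stfa2*, *Stfa3* and *Cstb* there were none, and the longest run shared by *Stfa2l1* and *Stfa2* was 97 bases. For *Stfa1*, 35 of 710 such stretches (4.93%) were shared with *Cstdc5*. Reads with a mismatch can still be placed on the wrong copy, and how the counting treated reads that map to several places is not given in the sources used here. Values of single stefin A genes are uncertain to that extent, and the sum of the 4 genes is given beside them. This sum does not cover reads exchanged between *Stfa1* and *Cstdc5*, which is not among the 4.

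The promoters of the 4 stefin A members are shown because these genes moved together between the subsets. RefSeq sequence of GRCm38.p6 is printed from 100 bases before the annotated start to 20 bases after it. Capitals mark runs of 10 or more bases that all 4 promoters share (clipped at the left end in *Stfa2l1*), found by comparing them after the expression values were known.
*Stfa2l1* (chr16:36156711-36156830, plus strand): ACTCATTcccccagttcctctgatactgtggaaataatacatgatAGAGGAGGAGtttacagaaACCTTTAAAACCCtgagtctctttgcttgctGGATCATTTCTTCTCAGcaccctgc
*Stfa1* (chr16:36277048-36277167, plus strand): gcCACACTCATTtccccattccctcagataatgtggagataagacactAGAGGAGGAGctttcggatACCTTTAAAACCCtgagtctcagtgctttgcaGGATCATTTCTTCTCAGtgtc
*Stfa2* (chr16:36408344-36408463, minus strand): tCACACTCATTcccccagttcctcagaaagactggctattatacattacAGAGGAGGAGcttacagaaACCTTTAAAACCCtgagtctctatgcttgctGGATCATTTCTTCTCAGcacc
*Stfa3* (chr16:36455373-36455492, minus strand): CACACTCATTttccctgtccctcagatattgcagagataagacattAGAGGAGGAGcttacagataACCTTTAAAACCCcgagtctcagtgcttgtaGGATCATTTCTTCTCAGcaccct
In the 300 bases from 250 before to 50 after the start, the 4 members share 7 such runs. The longest is GGATCATTTCTTCTCAG, 17 bases that begin 1 to 5 bases before the start, and 6 of the 32851 promoters in the table hold it on either strand. These 6 are the 4 members, *Csta3* and *Cstdc5*. The run ACCTTTAAAACCC begins 32 to 36 bases before the start and occurs in 9 promoters. Over the 300 bases, *Stfa2l1* and *Stfa2* were 90.5% identical and the other pairs of members 78.8% to 80.9%. The promoter of *Csta2*, a relative in the same cluster, holds none of the 7 runs and was 43.7% to 46.9% identical to those of the members. *Csta2* had a mean of 33.2 CPM in BM Gr-1hi and 0.124 CPM in BM Gr-1lo cells. A single annotated start was taken for each gene, and other starts of *Csta2* were not examined. The part of the shared runs in expression was not tested. A C/EBP motif spelled TTNNGNAA was found on the minus strand of *Stfa2l1*, *Stfa2* and *Stfa1* and not in *Stfa3*, and 40.7% of all promoters hold it on either strand. The ETS motif AGGAAGT, which PU.1 binds, and the TATA box spelled TATAAA had no match in the 4 promoters, against 9.35% and 13.6% of all promoters. Only the C/EBP motif matched, so no motifs overlapped, and a match is only a match of letters.

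The libraries held 33453580 to 68316154 counts, so that the limit set by 0 counts, taken as 3 counts, was 0.0348 to 0.124 CPM, or counts scaled to a common library size, and covers counting error only. Counts were scaled to CPM by edgeR's TMM method and compared by its quasi-likelihood test, with Benjamini-Hochberg adjustment over the 17650 genes that passed its filter, all 5 members among them, although *Stfa2* and *Stfa3*, with at most 11 counts in a Gr-1lo library, passed it through their Gr-1hi libraries. Replicate libraries were not copies of each other. *Ly6g*, the neutrophil antigen behind the Gr-1hi gate, was at 330 to 801 CPM in Gr-1hi and 3.07 to 8.23 CPM in Gr-1lo libraries. The 7 monocyte markers summed to 6860 to 10200 CPM in Gr-1lo and 1020 to 1760 CPM in Gr-1hi libraries, so in these markers the subsets matched their labels. The primary granule markers *Mpo*, *Elane*, *Prtn3* and *Ctsg* summed to 1130 to 3160 CPM in Gr-1lo and 8.2 to 38 CPM in Gr-1hi libraries. Which of the sorted Gr-1lo cells carried them was not tested. By *Xist* and *Ddx3y*, only library 5 matched the label of sex, which is female. Counts of *Xist*, transcribed from the inactive X chromosome, were 12032 for library 5 and 9898 for library 7, and no other library exceeded 5. *Ddx3y*, a Y-linked gene, had 0 counts in library 5 and 33.7 to 82.6 CPM in the others, library 7 included. The contrasts of the members that use libraries 5 and 7 are therefore given without them as well. Those fits leave a single library in each SP group, and a fit without any other library leaves a single library in its group too. The spread then comes from the other groups, so passing a threshold in such a fit is not a replicated result.

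Between the subsets, the 4 stefin A genes were higher in Gr-1hi cells of both tissues by fold changes (FCs) of 56.1 to 358. In the same fit *Cstb* was lower by less than 2-fold. All 4 stefin A members passed the study's thresholds for this contrast (adjusted p < 0.01 and FC > 8) in BM and in SP. *Stfa2* and *Stfa3* entered the test only through their Gr-1hi libraries, so their calls are not set against a share of all genes. For *Stfa1* and *Stfa2l1*, the share of all genes tested that were higher at these thresholds was 6.56% in BM and 4.44% in SP. *Cstb* was lower at an adjusted p of at most 0.05, as were 41.2% of genes in BM and 37.8% in SP, and its FC did not reach the threshold.

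**Figure D1:**
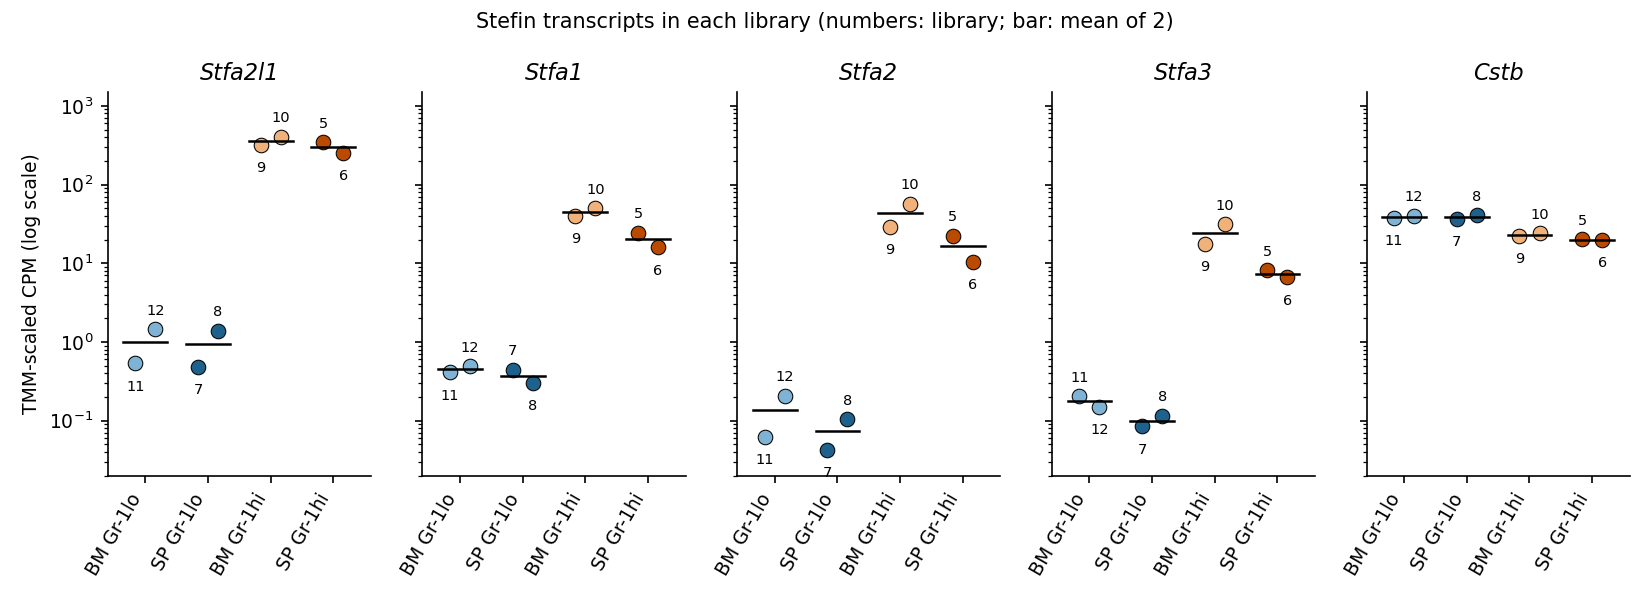
TMM-scaled CPM on a log axis for each of the 8 libraries, with 1 panel per gene, the library number beside each point and a bar at the mean of the 2 libraries of a group. The Gr-1hi libraries of the 4 stefin A genes sit at 6.6 to 403 CPM, above every Gr-1lo library at 0.0422 to 1.45 CPM, and *Cstb* shows the opposite order at 19.7 to 24 against 37 to 40.9 CPM.

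*Stfa2l1* (ENSMUSG00000059657, chr16:36156811-36161953, plus strand) was the most abundant member in Gr-1hi cells. It was at 319 and 403 CPM in the BM Gr-1hi libraries and at 346 and 254 CPM in the SP Gr-1hi libraries. In Gr-1lo cells it was at 0.533 and 1.45 CPM in BM and at 0.485 and 1.39 CPM in SP, from 23 to 120 counts per library. No Gr-1lo library came within reach of a Gr-1hi library, while the tissues overlapped. The log2 FC between the subsets was 8.48 (adjusted p = 1.59e-05, SE 0.59) in BM and 8.21 (adjusted p = 2.41e-05, SE 0.58) in SP. The size of the difference rested on few Gr-1lo counts, at 9.37 in BM without library 12 and 9.24 in SP without library 8, and it was 7.49 in SP without libraries 5 and 7.

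*Stfa2* (ENSMUSG00000022902, chr16:36403992-36408457, minus strand), the nearest copy of *Stfa2l1* in sequence, was far less abundant. It was at 28.7 and 57.2 CPM in BM Gr-1hi and at 22.3 and 10.4 CPM in SP Gr-1hi libraries, and at 0.0615 and 0.208 CPM in BM Gr-1lo and 0.0422 and 0.104 CPM in SP Gr-1lo libraries. The lowest of these values are 2 and 3 counts, at or below the limit of a count of 0. The log2 FC between the subsets was 8.26 (adjusted p = 3.77e-05, SE 0.72) in BM and 7.60 (adjusted p = 9.52e-05, SE 0.75) in SP. In BM it was 7.64 without library 11 and 9.36 without library 12. In SP it was 6.92 without library 5, 8.47 without library 8 and 6.58 without libraries 5 and 7.

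*Stfa3* (ENSMUSG00000054905, chr16:36450537-36455392, minus strand) was at 17.5 and 31.2 CPM in BM Gr-1hi and at 8.17 and 6.6 CPM in SP Gr-1hi libraries. In Gr-1lo libraries it was at 0.205 and 0.151 CPM in BM and at 0.0844 and 0.116 CPM in SP, from 4 to 10 counts. The groups did not overlap, and the log2 FC between the subsets was 7.08 (adjusted p = 6.73e-07, SE 0.39) in BM and 6.11 (adjusted p = 3.6e-06, SE 0.41) in SP, or 5.78 in SP without libraries 5 and 7.

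*Stfa1* (ENSMUSG00000071562, chr16:36276951-36285373, plus strand) had the smallest contrast of the stefin A members. It was at 39.5 and 50.1 CPM in BM Gr-1hi and at 24.4 and 15.9 CPM in SP Gr-1hi libraries. Its Gr-1lo level was even across the libraries, at 0.41 and 0.491 CPM in BM and 0.443 and 0.301 CPM in SP, from 20 to 26 counts. The log2 FC between the subsets was 6.62 (adjusted p = 3.41e-07, SE 0.30) in BM and 5.81 (adjusted p = 1.35e-06, SE 0.30) in SP, or 5.68 in SP without libraries 5 and 7.

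*Cstb* (ENSMUSG00000005054, chr10:78425669-78427622, plus strand) was the only member on another chromosome, and its level differed least between the subsets. It was at 37.8 and 40.1 CPM in BM Gr-1lo, 37 and 40.9 CPM in SP Gr-1lo, 22.4 and 24 CPM in BM Gr-1hi and 20.1 and 19.7 CPM in SP Gr-1hi libraries. Each Gr-1lo library was above each Gr-1hi library. The log2 FC was -0.75 (adjusted p = 0.000114, SE 0.10) in BM and -0.97 (adjusted p = 2.9e-05, SE 0.10) in SP, or 1.68-fold and 1.96-fold lower in Gr-1hi cells. Without libraries 5 and 7 it was -1.08 in SP.

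Summed over the 4 stefin A members, which a read assigned to the wrong member leaves unchanged, Gr-1hi libraries held 287 to 541 CPM and Gr-1lo libraries 1.06 to 2.3 CPM. The log2 FC of the sum was 8.06 (adjusted p = 2.96e-06, SE 0.44) in BM and 7.80 (adjusted p = 5.71e-06, SE 0.44) in SP. Without libraries 5 and 7, with a single library left in each SP group, it was 8.01 in BM and 7.21 in SP. The mean of the sum in Gr-1lo cells was 0.371% of that in Gr-1hi cells in BM and 0.432% in SP. The 8 neutrophil markers had shares on both sides of these. *Retnlg*, at 0.281% in BM and 0.319% in SP, had smaller shares than the sum, and *Mmp9*, at 0.336% and 0.437%, had shares close to it. *Ly6g* was at 0.567% and 1.69%, *Cxcr2* at 0.576% and 1%, and *Csf3r*, *Mmp8*, *S100a8* and *S100a9* were at 3.21% to 5.7% in BM and 4.38% to 13.3% in SP. Among the stefin A members, *Stfa1* had the largest shares, at 1.01% and 1.85%. The part of neutrophils among the sorted Gr-1lo cells in the stefin A counts there was not tested.

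**Figure D2:**
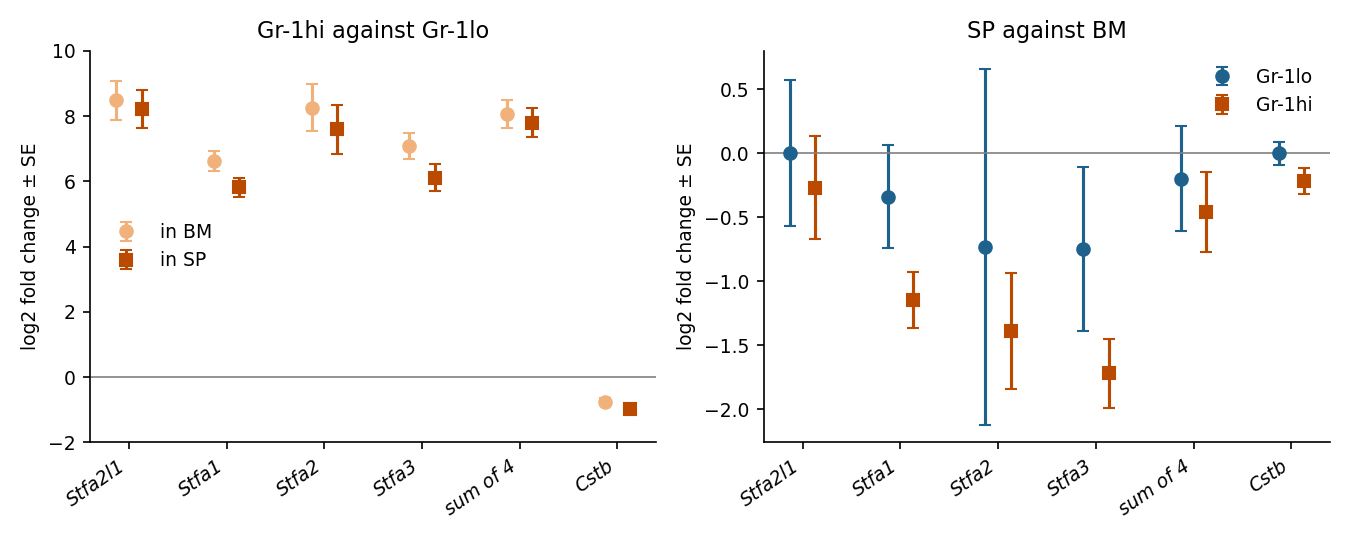
Log2 fold changes with their SE from edgeR's fit of all 8 libraries, for the 5 members and for the sum of the 4 stefin A members, between the subsets of each tissue (left) and between the tissues in each subset (right). Between the subsets the stefin A genes lie at 5.81 to 8.48 and *Cstb* at -0.97 and -0.75. Between the tissues, *Stfa3* at -1.72 and *Stfa1* at -1.15 in Gr-1hi cells are the values that passed the threshold.

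Levels of different genes were compared per kilobase of exon (CPM per kb). In BM Gr-1hi cells *Stfa2l1* was at 861 ± 142 CPM per kb (SD, n = 2) and ranked 68 among 17614 genes. *Stfa2* at 91.2 ± 42.7, *Stfa1* at 63.1 ± 10.5 and *Stfa3* at 59.2 ± 23.5 CPM per kb followed, and their libraries overlapped. *Cstb* was below them at 38.5 ± 1.87 CPM per kb. In SP Gr-1hi cells *Stfa2l1* was at 716 ± 154 CPM per kb, rank 82, and the order below it was *Stfa2* at 34.7 ± 17.8, *Cstb* at 33 ± 0.457, *Stfa1* at 28.4 ± 8.49 and *Stfa3* at 17.9 ± 2.69 CPM per kb, of which only *Stfa3* did not overlap with its neighbour. In Gr-1lo cells the order turned: *Cstb*, at 64.5 ± 2.74 CPM per kb in BM and 64.6 ± 4.6 in SP, ranked 733 and 743, and *Stfa2l1*, at 2.37 ± 1.56 and 2.24 ± 1.53 CPM per kb, ranked 9687 and 10010.

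Relative to *Stfa2l1*, *Stfa1* and *Stfa3* had more counts in Gr-1lo than in Gr-1hi libraries, while *Stfa2* overlapped. *Stfa3* had 8.33% to 38.5% as many counts as *Stfa2l1* in Gr-1lo and 2.36% to 7.76% in Gr-1hi libraries. For *Stfa2* the ranges were 7.5% to 14.3% and 4.1% to 14.2%. In the 4 Gr-1hi libraries *Stfa1* had 6.25% to 12.4% as many counts as *Stfa2l1*. In the Gr-1lo libraries it had 91.3% and 21.7% in SP and 76.9% and 33.8% in BM. The spread came from *Stfa2l1*, with 23 and 120 counts in libraries 7 and 8 and 26 and 77 in libraries 11 and 12, while *Stfa1* had 20 to 26 counts in all of them. Of the neutrophil markers, *Ly6g*, *Retnlg* and *Mmp9* were also higher in library 8 than in 7 and in 12 than in 11, with *Retnlg* at 7.91 and 14.9 CPM in SP and 17.3 and 32.1 CPM in BM. *Mmp8* was lower in both, and the other 4 markers differed in direction between the tissues. The part of neutrophils in this was not tested. The stefin A counts here are small and the proportions were not tested.

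The next question was whether the cells of the spleen differ from their BM counterparts. In Gr-1hi cells, 2 of the 5 members were lower in SP with an FC of 2 or more and an adjusted p up to 0.05, *Stfa3* and *Stfa1*, against 1.48% of all genes tested that were lower at these thresholds. *Stfa3* was 3.3-fold lower (log2 FC -1.72, SE 0.27, adjusted p = 0.0023) and *Stfa1* 2.22-fold lower (log2 FC -1.15, SE 0.22, adjusted p = 0.00536), and in both genes each SP library was below each BM library. *Stfa2* had a log2 FC of -1.39 (adjusted p = 0.0522, SE 0.45) with no overlap of the libraries and did not pass. *Stfa2l1* had a log2 FC of -0.27 (adjusted p = 0.647, SE 0.40) and *Cstb* one of -0.22 (adjusted p = 0.113, SE 0.10). The sum of the 4 genes, most of which is *Stfa2l1*, had a log2 FC of -0.46 (adjusted p = 0.297, SE 0.31). Summed over 11 stefin A family genes, *Cstdc5* included, the log2 FC was -0.61 (adjusted p = 0.314, SE 0.43).

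Single libraries decided some of these calls. Without library 6, the lower of the SP pair, *Stfa1* was at -0.95 (adjusted p = 0.00381), short of an FC of 2. *Stfa2* passed without library 5 (-2.12, adjusted p = 0.0294), without library 9 (-1.87, adjusted p = 0.0249) and with RLE scaling (-1.45, adjusted p = 0.0422). *Stfa3* passed whichever library was left out, at -2.15 to -1.35. Without libraries 5 and 7, which leaves library 6 alone in SP Gr-1hi, *Stfa1* was at -1.48, *Stfa3* at -1.87 and *Stfa2* at -2.02.

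Neutrophil markers and markers of other cells differed between the tissues too. In Gr-1hi libraries the neutrophil markers summed to 64300 and 76100 CPM in SP and 107000 and 112000 CPM in BM, the secondary granule markers to 30700 and 55700 against 67800 and 76700 CPM, and the 4 primary granule markers to 8.2 and 15 against 38 and 31 CPM. The neutrophil markers did not all go one way. *Retnlg*, *Mmp8*, *S100a8* and *S100a9* were lower in SP by log2 FCs of -1.30 to -0.68 with adjusted p-values of 0.0074 to 0.0309. *Csf3r*, the receptor for G-CSF, was higher (log2 FC 0.86, adjusted p = 0.00565), and *Ly6g* (-0.85, adjusted p = 0.0562), *Mmp9* (-0.93, adjusted p = 0.052) and *Cxcr2* (0.06, adjusted p = 0.782) did not pass. The 6 B cell markers summed to 423 and 288 CPM in SP and 14.3 and 11.2 CPM in BM, and the 4 erythroid markers to 118 and 406 against 20.4 and 24 CPM. Within SP, library 5 was above library 6 in all 4 stefin A genes, *Csf3r* and *Cxcr2*, and below it in the other 6 neutrophil markers. The part of these markers in the lower *Stfa1* and *Stfa3* was not tested.

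In Gr-1lo cells no member differed between SP and BM by edgeR, and none had an unadjusted p under 0.05, against 3.84% of all genes tested that were called higher and 0.215% lower. DESeq2 and limma called none either. The log2 FCs were 0.00 for *Stfa2l1* (adjusted p = 0.999, SE 0.57) and *Cstb* (adjusted p = 0.997, SE 0.09), -0.34 for *Stfa1* (adjusted p = 0.692, SE 0.40), -0.73 for *Stfa2* (adjusted p = 0.815, SE 1.39) and -0.75 for *Stfa3* (adjusted p = 0.563, SE 0.64). With so few stefin A counts in these cells, the SEs of the stefin A genes were 0.40 to 1.39. A difference of 2-fold could be missed in any of them, so the 0.00 of *Stfa2l1* does not show equal levels. The error of *Cstb*, at 0.09, was small. The interaction of tissue and subset, which tests whether the SP difference is unlike in the subsets, was called for none of the members by edgeR, DESeq2 or limma, and none had an unadjusted p under 0.05 by edgeR, against 7.74% of all genes called higher and 2.00% lower. It was -0.97 for *Stfa3* (adjusted p = 0.395, SE 0.72) and -0.81 for *Stfa1* (adjusted p = 0.264, SE 0.46), so a difference between the subsets was not shown.

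The members lie among relatives, and their neighbours were looked up to see whether the SP difference in Gr-1hi cells had an order along the cluster. From *Csta1* on the left to *Stfa3* on the right, 26 other annotated genes were in the table, small nuclear RNAs and pseudogenes included, and 9 passed the filter. Relatives with almost no Gr-1lo counts could pass the filter only by being high in Gr-1hi cells, so how many were higher there is not counted. The pseudogenes *Gm6815* and *Gm10913* were not called between the subsets in either tissue. *Cstdc4* was second to *Stfa2l1* in CPM in Gr-1hi cells, at 264 and 355 CPM in BM Gr-1hi and 198 and 158 CPM in SP Gr-1hi libraries. *Csta2* was at 28.4 and 38.1 against 30.6 and 21.8 CPM and *Cstdc5* at 30.1 and 50 against 18.1 and 9.89 CPM. Reads of *Cstdc4* and *Csta2* can be confused over a shared run of 134 bases, and those of *Cstdc5* over 138 bases with *Cstdc6* and 128 bases with *Stfa1*.

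In SP against BM Gr-1hi cells, 2 relatives of the 9 were called lower (1.48% of all genes were), *Cstdc5* (log2 FC -1.51, SE 0.32, adjusted p = 0.00923) and *Cstdc6* (log2 FC -1.67, SE 0.40, adjusted p = 0.0169, and 0.0638 without library 10). Like *Stfa1*, *Stfa2* and *Stfa3*, they lie in the right part of the cluster. The genes of the left part, *Cstdc4* (log2 FC -0.80, adjusted p = 0.25), *Csta3* (0.52, adjusted p = 0.252) and *Csta2* (-0.34, adjusted p = 0.413), did not pass, and neither did *Stfa2l1*. The pseudogene *Cstdc3*, in the right part, was at -1.56 (adjusted p = 0.0641) from 17 counts in SP and 40 in BM. An exception in the right part was the pseudogene *Gm49652*, between *Stfa2* and *Stfa3*, at -0.47 (adjusted p = 0.533) from 23 and 25 counts. *Csta3*, *Cstdc3*, *Cstdc6* and the Gm pseudogenes lie outside the rule for named genes and were named after their values were seen.

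Counts relative to *Stfa2l1* within each library, which need no scaling, separated the parts less clearly. *Stfa1* had 7.06% and 6.25% as many counts as *Stfa2l1* in the SP Gr-1hi and 12.4% and 12.4% in the BM Gr-1hi libraries. *Stfa3* had 2.36% and 2.6% against 5.5% and 7.76%, and *Stfa2* had 6.45% and 4.1% against 9.02% and 14.2%. *Csta2* had nearly the same ratio in both tissues, at 8.84% and 8.57% in SP and 8.9% and 9.46% in BM. The other genes of the left part differed from it and from each other: *Cstdc4* was lower in SP without overlap, like the right part, at 57.4% and 62.1% against 82.8% and 88.2%, and *Csta3* was higher, at 0.933% and 1.14% against 0.669% and 0.533%. The split into a left and a right part was made after the values were seen and has no test, and genes of the right part that share reads are not independent of each other.

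**Figure D3:**
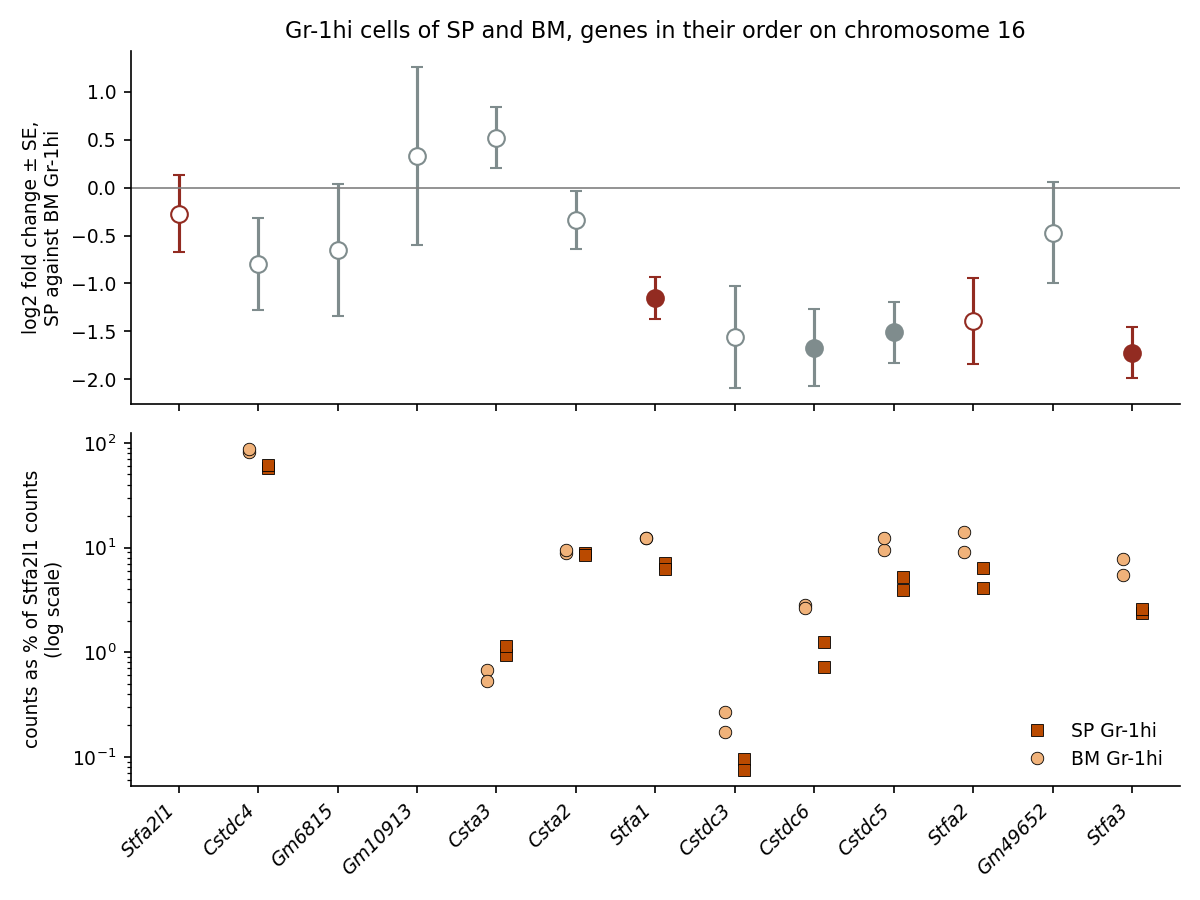
The 13 tested genes of the cluster in their order on chromosome 16, spaced evenly. The upper panel shows the log2 fold change with its SE between SP and BM Gr-1hi cells, with filled symbols for called genes and red for members, and the lower panel the counts of each gene as a percentage of the *Stfa2l1* counts of the same library on a log axis, with 2 libraries per tissue and without the Gm pseudogenes. From *Stfa1* to the right the genes lie at -1.15 to -1.72, except *Gm49652* at -0.47, and of the left part *Csta2* has nearly the same ratio in all 4 libraries, at 8.57% to 9.46%, *Cstdc4* a lower ratio in SP and *Csta3* a higher one.

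Lysosomal cysteine proteases were surveyed as a list of 11 genes, of which 10 passed the filter. They are cathepsins of the papain type, the kind that stefins bind, and legumain, which stefins do not inhibit. In both tissues 7 of the 10 were lower in Gr-1hi cells (adjusted p up to 0.05), against 41.2% of all genes tested in BM and 37.8% in SP, and none was higher. This is the direction of *Cstb* and opposite to that of stefin A. The median log2 FC of the list was -1.15 in BM and -1.12 in SP, against -0.17 and -0.09 over all genes tested. *Ctsc*, cathepsin C, which activates the serine proteases of neutrophil granules, had the largest decrease. It was at 1120 and 1370 CPM in BM Gr-1lo and at 27.4 and 50 CPM in BM Gr-1hi libraries, with a log2 FC of -5.01 (adjusted p = 1.44e-05, SE 0.38) in BM and -4.22 (adjusted p = 4.01e-05, SE 0.36) in SP. *Ctss*, which trims the invariant chain of MHC class II, was lower by a log2 FC of -2.78 (adjusted p = 0.000149, SE 0.33) in BM and -1.26 (adjusted p = 0.00816, SE 0.31) in SP. The SP value of *Ctss* did not pass without library 6 (-1.05, adjusted p = 0.0838) or without libraries 5 and 7 (-1.60, adjusted p = 0.0959). *Lgmn*, *Ctsz*, *Ctsb*, *Ctsh* and *Ctsl* were lower by log2 FCs of -2.45 to -0.65 in BM and -1.70 to -0.90 in SP. *Ctso* did not pass in either tissue, and neither did *Ctsw* and *Ctsk*, which stayed under 10 CPM.

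Of 16 other cystatins only *Cst3* and *Cst7* passed the filter, and both were lower in Gr-1hi cells. *Cst3*, the secreted cystatin C, had log2 FCs of -0.69 (adjusted p = 5.08e-05, SE 0.08) in BM and -0.41 (adjusted p = 0.00153, SE 0.08) in SP. *Cst7*, cystatin F, a lysosomal inhibitor of cathepsin C, was at 23.9 and 23.7 CPM in BM Gr-1lo and 1.53 and 0.867 CPM in BM Gr-1hi libraries. Its log2 FC was -4.29 (adjusted p = 7.47e-06, SE 0.35) in BM and -2.27 (adjusted p = 0.000215, SE 0.31) in SP.

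**Figure D4:**
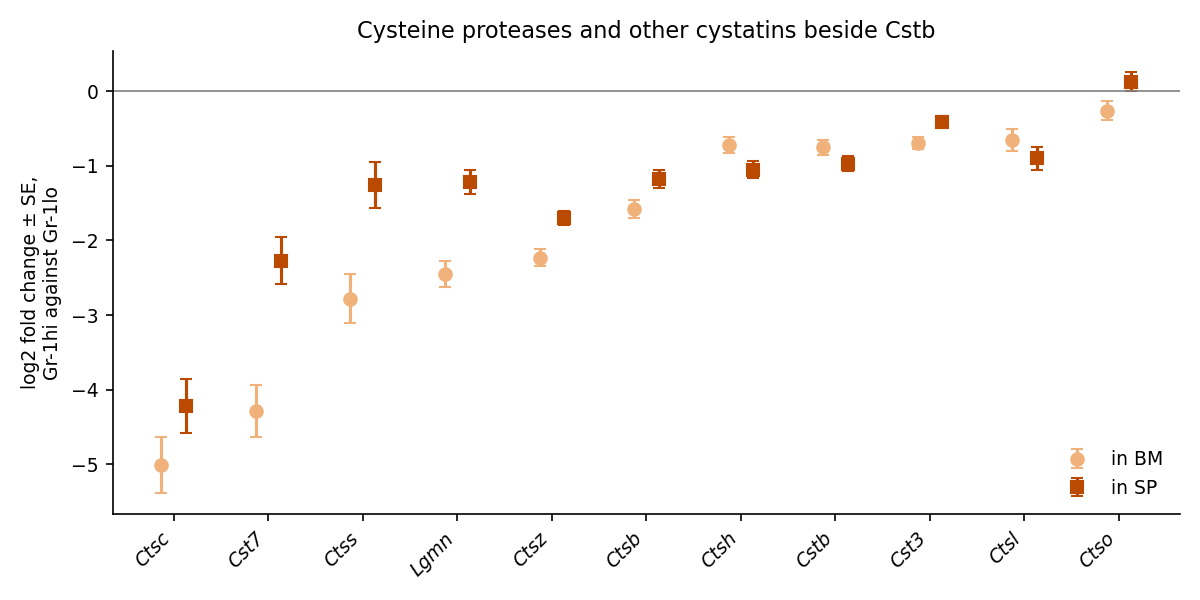
Log2 fold changes with their SE between Gr-1hi and Gr-1lo cells in BM (circles) and SP (squares) for the named cysteine proteases and other cystatins, with *Cstb* among them. *Ctsc* lies lowest at -5.01 and -4.22, *Cstb* at -0.75 and -0.97, and *Ctso* near 0 at -0.26 and 0.13.

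Between SP and BM, the proteases went the other way from *Stfa1* and *Stfa3*. In Gr-1hi cells 6 of 10 were higher in SP at an adjusted p of at most 0.05, against 20.1% of all genes tested, or 4 of 10 without library 5 or without libraries 5 and 7. *Ctsh* was lower (log2 FC -0.33, adjusted p = 0.047), against 13.9% of all genes, and lost this call in 11 of 15 alternatives. The median log2 FC of the list was 0.69, against 0.03 over all genes. *Lgmn* rose from 6.99 and 6.4 CPM in BM to 30.4 and 24.4 CPM in SP (log2 FC 2.03, SE 0.17, adjusted p = 0.000208). The B cell markers differed in this direction, and so did markers of some other cells. In SP against BM Gr-1hi libraries, splenic macrophage markers summed to 195 and 186 against 123 and 108 CPM. T cell markers summed to 53 and 33.2 against 7.33 and 4.25 CPM. Dendritic cell markers summed to 8.95 and 7.18 against 2.28 and 3.1 CPM, although *Siglech* among them was lower in SP. Monocyte markers went the other way in sum, at 1020 and 1140 against 1330 and 1760 CPM. Among them *Csf1r* was higher in SP (log2 FC 1.05, adjusted p = 0.00434), *Ly6c2* was lower (-0.90, adjusted p = 0.0162), and the others did not pass. Mast cell markers overlapped, at 69 and 31.4 against 54.7 and 50 CPM. The part of these markers in the higher proteases was not tested. *Ctss* was higher by a log2 FC of 1.70 (adjusted p = 0.00719, SE 0.32), which did not pass without library 5 (1.35, adjusted p = 0.0688) or without libraries 5 and 7 (1.44, adjusted p = 0.163). In Gr-1lo cells 2 of 10 were higher, *Lgmn* and *Ctsw*, against 4.88% of all genes (0 of 10 without library 8 or without library 12), and *Ctsw*, under 10 CPM, was named after its values were seen. *Cst3* was higher in SP Gr-1hi cells by a log2 FC of 0.26 (adjusted p = 0.0363, SE 0.08), which among the alternatives passed only with upper-quartile scaling. *Cst7* had a log2 FC of 1.15 there (adjusted p = 0.0515, SE 0.39) and did not pass. By the interaction at the same adjusted p, 2 of 10 proteases and 1 of the 2 cystatins were higher, against 10.3% of all genes tested.

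The genes most like the members were sought over the 8 libraries among 8590 other genes of at least 10 mean CPM, by Pearson's r of log2(CPM + 1). For the mean of the 4 stefin A members they were *Cwf19l2* (0.9984), *Ikbkg* (0.9980), *Rnf14* (0.9974), *Ubl7* (0.9973) and *Atxn10* (0.9969), and for *Cstb* they were *Ube2n-ps1* (0.9954), *Eif4e2* (0.9951) and *Gm6397* (0.9950). With 2 subsets in the 8 libraries such r values mostly restate the difference between the subsets, and its size can be unlike: *Ubl7* had 41.5 CPM in BM Gr-1lo and 64.5 CPM in BM Gr-1hi cells. The 4 stefin A members had r of at least 0.96 with each other and -0.96 to -0.87 with *Cstb*.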

How the data were processed

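RNA-seq of 8 libraries was analysed, with 2 per group, and the groups came from the deposited labels. According to the study's methods and the labels, reads of a stranded paired-end protocol were checked with FastQC, filtered with Sickle, aligned to GRCm38 with STAR and counted per gene with featureCounts. The authors deposited raw counts of 54188 genes without normalization. How reads that map to several places were treated is not given in the sources used here. The depth was 33453580 to 68316154 counts per library, and replicates are stated to be independent biological samples.

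Counts were tested with edgeR 4.0.16 in R 4.3.3: filterByExpr, TMM, a quasi-likelihood fit with robust dispersion and 1 term per group over all 8 libraries (4 residual degrees of freedom), and Benjamini-Hochberg adjustment over 17650 genes. The SE is the size of the log2 FC divided by the square root of F. Genes were called between SP and BM, and for the interaction, with an FC of 2 or more and an adjusted p up to 0.05, and between the subsets with an FC over 8 and an adjusted p under 0.01, as in the study. For lists, genes of any FC with an adjusted p up to 0.05 were counted. The fit was also run on simulated counts with the same spread for every gene. Their fold changes were smaller than those of stefin A between the subsets, so that run is no check of these contrasts. The alternatives were RLE and upper-quartile scaling, no filter, DESeq2 1.42.0, limma 3.58.1 on log2(quantile-normalized TPM + 1), a fit of the 4 libraries compared, leaving out libraries 5 and 7 or each library, and, added after seeing the data, a sum over 11 stefin A family genes.

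Gene positions, exon lengths and transcripts came from GENCODE M21 (53947 of 54188 identifiers matched), coding identities from global alignment with Biopython 1.88, and promoters from RefSeq. The promoter table matched the 4 stefin A members. The members and lists were chosen with earlier results of these data known. The 5 members were named throughout, relatives and list genes where they passed an adjusted p of 0.05 and reached 10 CPM in a group (at most 8 of a list), and *Ly6g*, *Itgam*, *Csf1r*, *Xist* and *Ddx3y* served as checks.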

Additional observations from a re-analysis of the deposited data

Results flagged for a closer look

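Of the 10 proteases and 2 other cystatins tested, 3 were higher by the interaction of tissue and subset and 0 were lower. None of the 5 stefins passed. Over all genes tested, 10.3% were higher and 6.08% lower by this test at an adjusted p up to 0.05. The log2 FC of Gr-1hi against Gr-1lo cells in SP minus that in BM was 2.02 for *Cst7* (SE 0.47, adjusted p = 0.0251), 1.23 for *Lgmn* (SE 0.23, adjusted p = 0.012) and 0.53 for *Ctsz* (SE 0.14, adjusted p = 0.0399). With 1 library left out, the values ranged from 1.44 to 2.42 for *Cst7* (adjusted p 0.0087 to 0.0918), from 0.96 to 1.43 for *Lgmn* (0.00555 to 0.052) and from 0.31 to 0.58 for *Ctsz* (0.015 to 0.191). Without libraries 5 and 7, the adjusted p was 0.0327 for *Cst7*, 0.0535 for *Lgmn* and 0.181 for *Ctsz*.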

How the results depend on the processing

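The 4 stefin A genes were called between Gr-1hi and Gr-1lo cells in both tissues under every alternative run, and *Cstb* kept its direction without being called. Their size varied: without 1 library, *Stfa2l1* was at 7.92 to 9.37 in BM and 7.72 to 9.24 in SP and *Stfa2* at 7.64 to 9.36 and 6.92 to 8.47, and limma, on its log2 scale with a pseudocount of 1, gave 5.66 to 8.03 in BM and 4.79 to 7.95 in SP for the 4 genes. The log2 FC of the summed stefin A genes ranged from 7.65 to 8.58 in BM and from 7.21 to 8.32 in SP. That of *Cstb* ranged from -1.16 to -0.60 in BM and from -1.27 to -0.84 in SP, beyond 2-fold in some alternatives. Between SP and BM Gr-1hi cells, 1 to 3 members were called when 1 library was left out, with 1 without library 6. In SP against BM Gr-1lo cells the values lay near 0 and changed sign. *Stfa2l1* was at -0.05 with RLE scaling, -0.13 with DESeq2, -0.14 with limma, -0.01 in the fit of 4 libraries and -1.04 to 0.91 when 1 library was left out. *Cstb* was at -0.06 with RLE scaling, -0.06 with DESeq2, -0.01 with limma and -0.07 to 0.08 without 1 library, and *Stfa2* at -1.62 to 0.39. The sum was at 0.10 without libraries 5 and 7 and at -0.74 to 0.34 without 1 library. The interaction without 1 library was -1.78 to 0.24 for *Stfa2*, -1.18 to 0.78 for *Stfa2l1* and -0.80 to 0.28 for the sum. None of these was called, and the cause was not tested. RLE scaling moved the median log2 FC of all genes between the subsets from -0.17 to -0.03 in BM and from -0.09 to 0.04 in SP.

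Counts of list genes at an adjusted p of at most 0.05 depended on the alternative where they were small. An unchanged count can stand for another gene. *Cst3*, the cystatin higher in SP Gr-1hi cells in the main fit, passed among the alternatives only with upper-quartile scaling. Of the other cystatins, 1 was higher in SP Gr-1hi cells, against 0 with RLE scaling, limma, the fit of 4 libraries or without libraries 5 and 7, 2 with upper-quartile scaling and 0 to 1 without 1 library (0 without 5, 9, 10, 11 or 12). The 1 lower protease in SP Gr-1hi cells, *Ctsh*, became 0 with upper-quartile scaling, limma, the fit of 4 libraries and without libraries 5 and 7, and was 0 to 1 without 1 library (1 only without 6). The higher proteases in SP Gr-1lo cells were 2, against 0 with limma, 1 without libraries 5 and 7 and 0 to 2 without 1 library (0 without 8 or 12). For the interaction, 2 proteases became 1 with RLE scaling, 0 with limma or without libraries 5 and 7 and 1 to 3 without 1 library (3 without 6, otherwise 1), and the 1 cystatin became 0 with limma and 0 to 1 without 1 library (0 without 5, 8, 10, 11 or 12). Relatives called lower in SP Gr-1hi cells were 1 to 2, with 1 without library 10. No paired analysis was possible because the groups share no library numbers and nothing in the labels ties a library to an animal. With 2 libraries per group and 2 to 120 stefin A counts per gene in a Gr-1lo library, depth limits the comparisons within Gr-1lo cells.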
